A study of Homo sapiens with 6 samples.

Results

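The expression of 50 genes that control the cell cycle and mitosis was examined in colorectal cancer cells after knockdown of ARMC5, a substrate adaptor of the CUL3 ubiquitin ligase. The 50 genes were taken from a fixed list by symbol, and their transcripts were summed per gene, out of 35810 genes with a matched transcript. The list was chosen with earlier results of these data known, so the shares of called genes given for it are descriptions. Of the 50 genes, 49 had enough reads to be tested among 13737 genes, and CCND2 did not. All 6 libraries came from SPT5-AID cells, which are DLD-1 colorectal adenocarcinoma cells with an auxin-inducible degron on the elongation factor SPT5. In 3 libraries, named shARMC5, the cells held an shRNA that targets ARMC5. In the other 3, named shNT, the shRNA had no target, and polyA+ RNA was sequenced in all. The shRNAs were delivered by lentivirus and infected cells were selected with puromycin, so both groups share infection and selection as well as the degron. No auxin or other drug is named for any of the 6 libraries. The labels do not say which ARMC5 shRNA construct was used, nor whether the replicates were separate infections, so the P values measure the spread between these samples.

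Cells enter the cycle when D cyclins and their kinases CDK4 and CDK6 phosphorylate the retinoblastoma protein, which frees E2F factors to switch on the genes of DNA replication. Later in the cycle FOXM1 and MYBL2, together with the MuvB complex, switch on the genes of mitosis, and the same genes are repressed by the DREAM complex in resting cells. Proliferating tumor cells carry most of these mRNAs at high levels, and in an unsynchronized culture the level of each one mixes the phases of many cells.

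Sequence features of the promoters are shown first, because they differ between genes of different phases. Of the 50 genes, 38 had an entry in the RefSeq promoter table (GRCh38.p14), which holds 250 bases before and 50 after the gene start. CCND1, CCND2, CCNE2, CDK2, E2F8, FOXM1, AURKA, BIRC5, BUB3, TTK, TPX2 and UBE2C had none. The letters of the cell cycle homology region (CHR), the element that MuvB complexes read, were searched as TTTGAA or TTCGAA on both strands, where TTCGAA reads the same on each. E2F sites were searched as TTTGGCGC, TTTCCCGC, TTTGCCGC or TTTCGCGC, and the CCAAT box, which is bound by NF-Y, as CCAAT, also on both strands. The windows below are 30 bases long and written 5′ to 3′ on the strand of the gene, with the matching letters in capitals. Capitals that differ from the letters searched are their match on the opposite strand. CDC20, TOP2A and CDC25A are shown because their mRNA level was called changed, PLK1, CDK1, CKS2 and MKI67 as well-known mitotic genes, and E2F1 and E2F2 as E2F factors that carry E2F letters themselves.
CDC20 CHR, chr1:43358904-43358933, plus strand: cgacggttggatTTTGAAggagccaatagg
CDC20 second CHR, chr1:43358791-43358820, plus strand: cctctcgtacccTTCAAAtcgcgctccgcc
TOP2A CHR, chr17:40418073-40418102, minus strand: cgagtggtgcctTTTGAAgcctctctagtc
TOP2A second CHR, chr17:40418030-40418059, minus strand: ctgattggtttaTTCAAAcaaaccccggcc
PLK1 CHR, chr16:23678848-23678877, plus strand: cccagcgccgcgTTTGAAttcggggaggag
CDK1 CHR, chr10:60778158-60778187, plus strand: gagtataataaaTTTGAActgtgccaatgc
CKS2 CHR, chr9:89311154-89311183, plus strand: cgggctgtcggaTTCAAAtccggatcgttg
MKI67 CHR, chr10:128126453-128126482, minus strand: ttagcgccagaaTTTGAAtcttcgttttcg
MKI67 second CHR, chr10:128126435-128126464, minus strand: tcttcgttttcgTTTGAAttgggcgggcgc
CDC25A E2F, chr3:48188443-48188472, minus strand: ggtggattccgTTTGGCGCcaactaggaaa
E2F1 E2F, chr20:33686387-33686416, minus strand: ggcaaaaaggaTTTGGCGCgtaaaagtggc
E2F1 second E2F, chr20:33686400-33686429, minus strand: gtggctctttcGCGGCAAAaaggatttggc
E2F2 E2F, chr1:23531257-23531286, minus strand: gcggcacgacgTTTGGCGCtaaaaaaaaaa

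The CHR letters stood in 18 of the 38 promoters (47.4%), against 16.6% of all 27305 promoters of the same length. Among the genes that peak in G2 and mitosis they stood in 17 of 25 promoters (68%), and among the genes that peak at the G1/S transition in 0 of 6. E2F letters ran the other way, in 4 of 6 G1/S promoters (66.7%) and 2 of 25 G2/M promoters (8%), against 3.33% of all promoters. The CCAAT box was found in 19 of 25 G2/M promoters (76%) and in 35.7% of all promoters. In the CDC20 and CDK1 windows above, the letters ccaat follow the CHR letters within a few bases. The promoters of CENPE and CCND3, whose mRNAs were called changed, held neither CHR nor E2F letters in this window. These counts are matches of letters, and binding of a factor was not measured.

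Libraries held 26201112 to 40866478 estimated reads. ARMC5 itself had 10.8, 11.97 and 12.9 normalized counts per 1000000 (CPM) in shARMC5 and 23.0, 25.9 and 26.7 CPM in shNT, a log2 fold change of -1.09 (SE 0.08, adjusted P = 5.32e-07). Over all genes, 1064 of 13737 (7.75%) were called at an adjusted P below 0.1 in edgeR, 610 higher (4.44%) and 454 lower (3.30%) in shARMC5. Scaled by library size only, the balance turned, with 458 higher and 495 lower. Epithelial markers were present. Of 12 listed colorectal epithelial genes, 9 had at least 1 TPM (transcripts per 1000000) in every library, with KRT8, KRT18, EPCAM and KRT19 the highest, while CDX1 was at 0 and CEACAM5 at or under 0.356 TPM. Their summed level was 8786 to 9101 TPM in shARMC5 and 7787 to 8321 TPM in shNT, and KRT8, KRT18 and KRT19 were called higher and VIL1 lower. Summed markers of fibroblasts (0.773 to 1.31 TPM), leukocytes (1.898 to 4.06 TPM) and endothelium (0.136 to 0.368 TPM) were near 0 in both groups.

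The cell cycle genes as a group stayed close to their control level, and the few called changes were small. Of the 49 tested genes, 7 were called (14.3%, against 7.75% of all genes), 5 higher and 2 lower in shARMC5. CCND1, CCND3, CDC25A, FOXM1 and CDC20 were higher, and CENPE and TOP2A were lower, by 6.28% to 14.0%. The median log2 fold change of the 49 genes was -0.005 and that of all tested genes -0.001. The median absolute change was 0.06 on the log2 scale, against 0.08 over all genes, with 24 genes above 0 and 25 below. The 3 libraries of each group did not overlap for 13 of the 49 genes (26.5%), against 23.4% of all tested genes. These comparisons are not matched for level, since mean levels reached down to 0.188 CPM over all tested genes and 14.1 CPM over the 49. Among genes of at least 10 CPM and 1000 to 2000 bases, 7.37% were called higher and 1.95% lower. For those of 2000 to 4000 bases it was 6.21% and 4.21%. Since the libraries are from bulk cultures, fewer cells in a phase and less RNA per cell cannot be told apart.

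**Figure D1:**
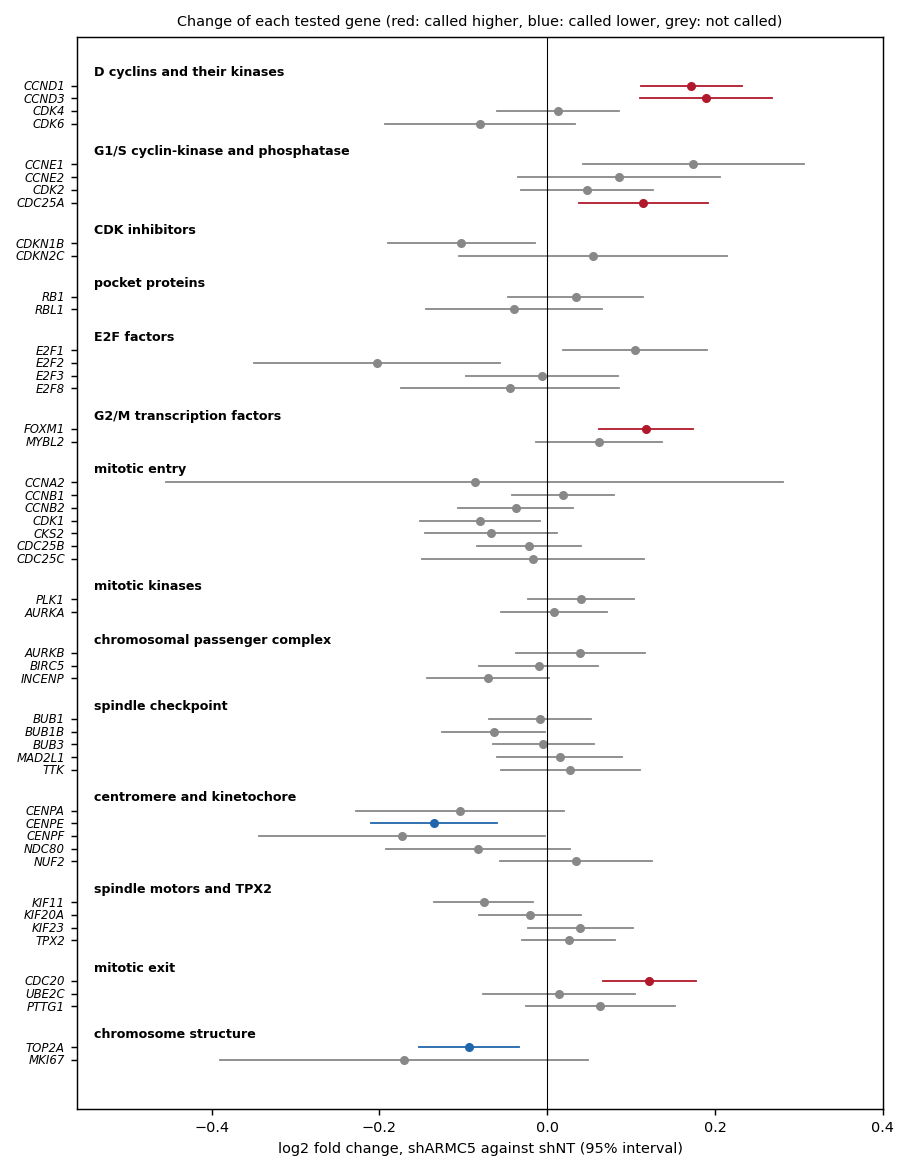
Log2 fold change of each of the 49 tested genes, shARMC5 against shNT, on the x axis, with its 95% interval as a line, grouped by role. The 7 called genes (red higher, blue lower) lie between -0.13 and 0.19, and CCNA2 has the widest interval.

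The levels of these genes, which are comparable between genes only per length, spanned a wide range of TPM. CCND1 had the highest mean over all libraries, with 405 ± 26.7 TPM in shARMC5 and 349 ± 26.3 TPM in shNT (SD, n = 3). Its 568-base retained-intron transcript CCND1-202 gave 18.5 to 68.8 TPM of this, from only 153.5 to 767.5 estimated reads a library. CKS2, the small subunit of cyclin-dependent kinases, came next at 345 ± 14.4 and 367 ± 7.57 TPM, and then CCNB1, cyclin B1, at 330 ± 5.59 and 328 ± 5.63 TPM. The coding transcript CCND1-201 alone had 283 to 335 TPM, which was below CKS2 in each library. In shNT, the ranges of mean ± SD of CCND1 and CKS2 overlapped, as did those of CKS2 and CCNB1 in shARMC5. At the low end were CDK6 (6.37 ± 0.347 and 7.51 ± 0.911 TPM), E2F2 (4.11 ± 0.168 and 5.01 ± 0.530 TPM) and CCND2. Summed over the 50 genes, the libraries held 5153.6, 5203.9 and 5056.5 TPM in shARMC5 and 5268.6, 5216.9 and 4940.3 TPM in shNT, so that the groups overlapped. The sums over the 31 G2/M genes overlapped as well, at 3693 to 3779 TPM and 3653 to 3912 TPM, as did those over the 9 G1/S genes, at 287.7 to 307.0 TPM and 278.7 to 298.1 TPM.

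**Figure D2:**
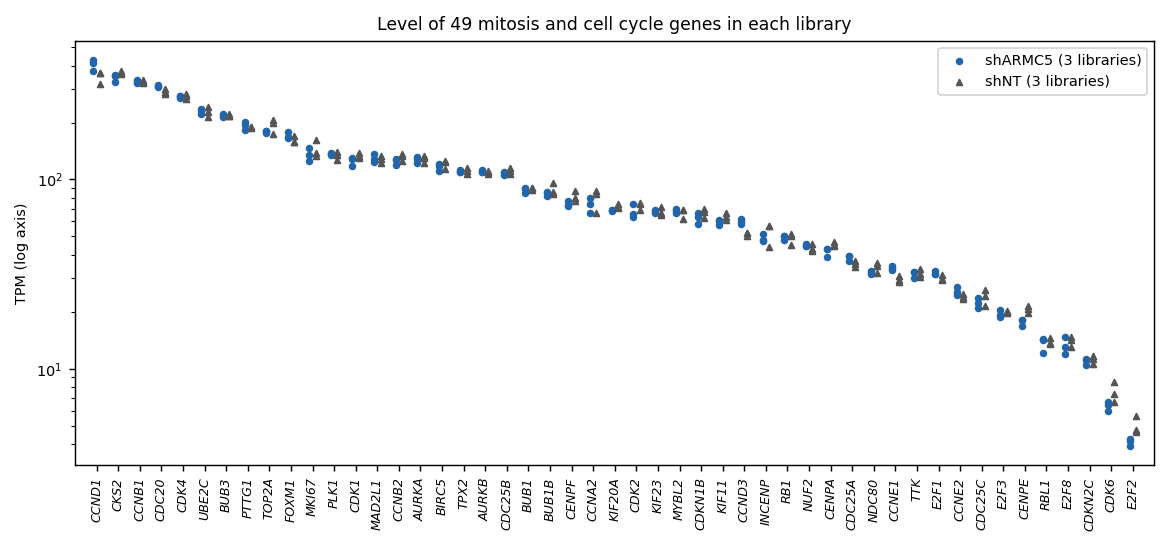
TPM on a log axis of each gene but CCND2 in the 3 shARMC5 libraries (blue circles) and the 3 shNT libraries (grey triangles), ordered by mean level. The symbols of both groups lie on each other for most genes, from CCND1 at about 405 and 349 TPM down to E2F2 at about 4.11 and 5.01 TPM.

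The D cyclins gave the firmest result. CCND1, which encodes cyclin D1, had 976, 984 and 962 CPM in shARMC5 and 855, 897 and 842 CPM in shNT. Every shARMC5 library was above every shNT library, and the level was 12.6% higher (log2 fold change 0.17, SE 0.03, adjusted P = 0.00149 in edgeR). CCND3, cyclin D3, is carried at a lower level, with 75.4, 73.8 and 76.1 CPM in shARMC5 against 64.0, 67.0 and 66.5 CPM in shNT. It was 14.0% higher, again without overlap (log2 fold change 0.19, SE 0.04, adjusted P = 0.00600). CCND2, cyclin D2, had 1 read in shARMC5 replicate 2 and 0 in each of the other 5 libraries, where a count of 0 allows up to 3 reads. Cyclin D1 therefore made up 85.9% to 88.1% of the D cyclin TPM in each library. Their kinases were not called. CDK4 had 214, 220 and 222 CPM in shARMC5 and 204, 225 and 221 CPM in shNT (log2 fold change 0.01, 95% interval -0.06 to 0.09), and its sign changed under 4 of 16 alternatives. CDK6 had 45.9, 45.9 and 42.7 CPM in shARMC5 and 49.4, 44.01 and 49.1 CPM in shNT (log2 fold change -0.08, 95% interval -0.19 to 0.03). Over the 16 alternatives CDK6 ran from -0.22, with an offset for transcript length, to -0.02, and it was called in 0 of them.

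CCND1 and CCND3 were called in every one of the 16 alternative analyses, with log2 fold changes of 0.15 to 0.23 and 0.16 to 0.23. Among the other called genes, FOXM1 and CDC20 were called in 14 of 16, CENPE in 12, TOP2A in 7 and CDC25A in 4.

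Of the 9 genes that peak at the G1/S transition, 1 was called, CDC25A, which was higher (11.1%, against 4.44% of all genes called higher). The log2 fold changes of the 9 ran from -0.20 (E2F2) to 0.17 (CCNE1), with 6 above 0, 3 below and a median of 0.06. CCNE1, cyclin E1, had 36.1, 37.7 and 38.6 CPM in shARMC5 and 31.7, 36.4 and 31.4 CPM in shNT, so that shNT replicate 2 lay within the shARMC5 range (log2 fold change 0.17, SE 0.06, adjusted P = 0.134). Without shNT replicate 2, CCNE1 was called, at 0.25 (adjusted P = 0.0338 in edgeR). It was called in 3 of 16 alternatives, and leaving out any 1 of the other 5 libraries did not call it. CDK2, the kinase of cyclin E, had 81.7, 85.0 and 84.1 CPM against 77.8, 82.9 and 82.0 CPM (log2 fold change 0.05, 95% interval -0.03 to 0.13). CDC25A, the phosphatase that activates CDK2, had 84.7, 89.1 and 85.5 CPM in shARMC5 and 81.3, 80.1 and 78.1 CPM in shNT. The groups did not overlap and CDC25A was 8.26% higher (log2 fold change 0.11, SE 0.04, adjusted P = 0.0863). This call was lost on leaving out any 1 of the 6 libraries, with log2 fold changes of 0.09 to 0.13 and adjusted P values of 0.113 to 0.309.

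The brakes of the pathway and the E2F factors were 8 genes, of which 0 were called, and with 7.75% of all genes called a count of 0 among so few says little. In 3 of the 8 the groups did not overlap, against 23.4% of all tested genes. CDKN1B, which encodes the CDK inhibitor p27, had 89.1, 92.4 and 86.1 CPM in shARMC5 and 93.5, 102 and 92.5 CPM in shNT (log2 fold change -0.10, SE 0.04, adjusted P = 0.191). Without shNT replicate 2, CDKN1B was at -0.06 (adjusted P = 0.476 in edgeR), and it was called in 2 of 16 alternatives. E2F1, an activating E2F factor, had 57.7, 55.7 and 57.4 CPM in shARMC5 and 52.6, 52.4 and 53.9 CPM in shNT (log2 fold change 0.10, SE 0.04, adjusted P = 0.169). E2F2, another activating factor, had 15.1, 15.5 and 14.7 CPM in shARMC5 and 18.1, 17.4 and 16.6 CPM in shNT (log2 fold change -0.20, SE 0.07, adjusted P = 0.114). RB1, the retinoblastoma gene, had 140, 143 and 131 CPM against 136, 139 and 129 CPM, with a log2 fold change of 0.03 (95% interval -0.05 to 0.11). CDKN2C, RBL1, E2F3 and E2F8 lay between -0.04 and 0.05 and overlapped between the groups.

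Of the transcription factors that drive the mitotic genes, FOXM1 rose. FOXM1 had 364, 346 and 352 CPM in shARMC5 and 328, 323 and 327 CPM in shNT, without overlap, and was 8.49% higher (log2 fold change 0.12, SE 0.03, adjusted P = 0.0155 in edgeR). With an offset for the average transcript length of each library, the difference was 0.09 and was not called in edgeR (adjusted P = 0.287) or DESeq2 (adjusted P = 0.207). MYBL2, which binds MuvB to activate mitotic genes, had 123, 126 and 124 CPM against 119, 125 and 114 CPM (log2 fold change 0.06, 95% interval -0.01 to 0.14).

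**Figure D3:**
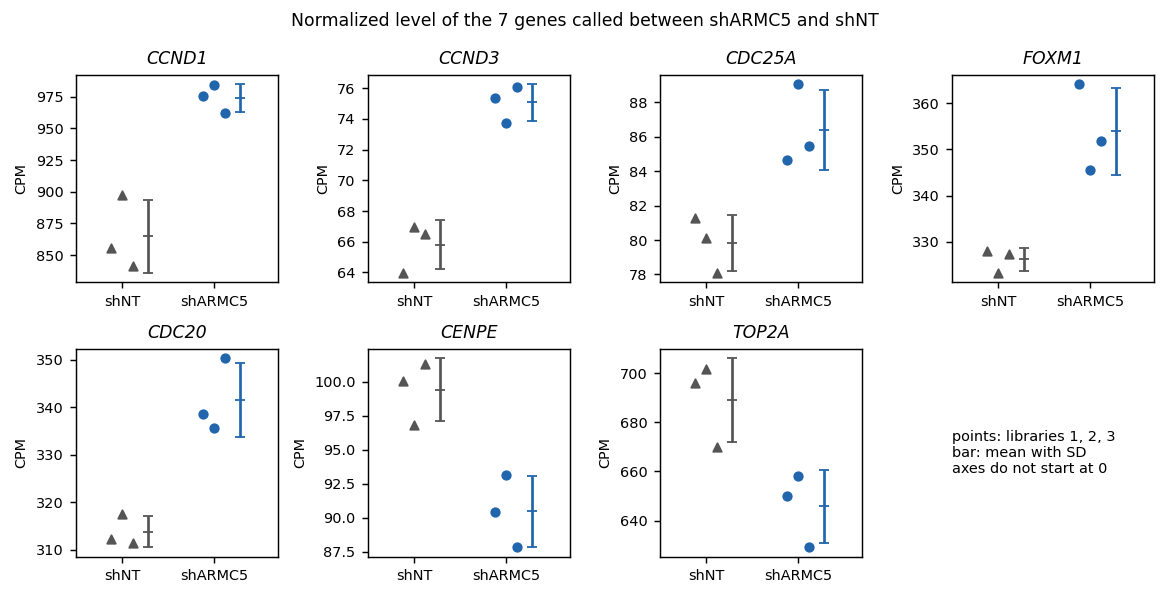
Normalized level in CPM of the 7 called genes in each library, with shNT as grey triangles, shARMC5 as blue circles and the mean with its SD beside them. The y axes do not start at 0, and in each panel the 3 shARMC5 libraries lie wholly above or wholly below the 3 shNT libraries.

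Of the 7 genes of mitotic entry 0 were called, too few to set against the 7.75% of all genes. CCNB1 had 280, 292 and 295 CPM in shARMC5 and 279, 291 and 286 CPM in shNT, with a log2 fold change of 0.02 (95% interval -0.04 to 0.08). CDK1, the kinase that drives entry into mitosis, had 129, 132 and 125 CPM against 132, 141 and 136 CPM (log2 fold change -0.08, 95% interval -0.15 to -0.01, adjusted P = 0.217). CDC25B and CDC25C, the phosphatases that activate CDK1, and CCNB2 and CKS2 lay between -0.07 and -0.02. PLK1, the kinase of mitotic entry and spindle assembly, had 189, 193 and 200 CPM against 190, 191 and 184 CPM (log2 fold change 0.04, 95% interval -0.02 to 0.10). AURKA, the spindle pole kinase, had 164, 173 and 170 CPM against 168, 170 and 167 CPM, with a log2 fold change of 0.01 (95% interval -0.05 to 0.07). The chromosomal passenger complex corrects wrong attachments of microtubules, and 0 of its 3 genes among the members were called, against 7.75% of all genes. Its kinase AURKB had 78.9, 76.4 and 81.2 CPM against 76.0, 77.2 and 76.8 CPM (log2 fold change 0.04, 95% interval -0.04 to 0.12), BIRC5 was at -0.01 and INCENP at -0.07.

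CCNA2, which encodes cyclin A2, was the least precisely measured of the 49 genes. It had 108, 123 and 135 CPM in shARMC5 and 132, 143 and 112 CPM in shNT, a log2 fold change of -0.09 with a 95% interval of -0.45 to 0.28. The within-group coefficient of variation was 11.8%, against a median of 2.77% over the members. GENCODE 44 held only 1 of its transcripts in the files. The transcript listed directly after it had no match in GENCODE 44 and held 1113 to 2194 reads, which is 20.9% to 39.4% of both together. The sum of both was nearly level, at 168.6 to 176.1 reads per 1000000 assigned reads in all 6 libraries, and with it the log2 fold change was 0.02 (SE 0.03). The files do not name the gene of the unmatched transcript. Its links to CCNA2 are the order of the list and this nearly level sum, and whether the transcripts share sequence was not tested.

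The spindle checkpoint holds anaphase until each chromosome is attached. None of its 5 genes among the members was called, again too few to set against the 7.75% of all genes. Outside the members, MAD1L1 was called higher (log2 fold change 0.18, adjusted P = 0.0935 in edgeR) and is given below with other kinetochore genes. BUB1, BUB1B, BUB3, MAD2L1 and TTK lay between -0.06 and 0.03 on the log2 scale. BUB1B, the checkpoint kinase-like protein BubR1, was 176, 176 and 173 CPM in shARMC5 and 178, 184 and 187 CPM in shNT, without overlap but not called (log2 fold change -0.06, adjusted P = 0.256). At mitotic exit, CDC20, which activates the anaphase promoting complex once the checkpoint is satisfied, was 338, 336 and 350 CPM in shARMC5 and 312, 317 and 311 CPM in shNT. The groups did not overlap and CDC20 was 8.81% higher (log2 fold change 0.12, SE 0.03, adjusted P = 0.0111). UBE2C, the ubiquitin-conjugating enzyme of that complex, and PTTG1, its substrate securin, were not called, at 0.01 and 0.06.

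Among centromere and kinetochore genes, 1 of 5 was called, as lower, against 3.30% of all genes called lower. CENPE, the kinesin that moves chromosomes to the metaphase plate, had 90.4, 93.1 and 87.8 CPM in shARMC5 and 100, 96.8 and 101 CPM in shNT. It fell by 8.91%, without overlap (log2 fold change -0.13, SE 0.04, adjusted P = 0.0383). The call was lost without shARMC5 replicate 3 (-0.12, adjusted P = 0.128), shNT replicate 1 (-0.13, adjusted P = 0.137) or shNT replicate 3 (-0.12, adjusted P = 0.141). It held with an offset for transcript length, where CENPE was at -0.21 in edgeR (adjusted P = 0.0795) and in DESeq2 (adjusted P = 0.00531). CENPF, a large kinetochore protein, had 404, 400 and 358 CPM in shARMC5 and 467, 416 and 427 CPM in shNT, without overlap, yet with a larger spread (log2 fold change -0.17, SE 0.07, adjusted P = 0.270). CENPA, the centromeric histone, was at -0.10, and NDC80 and NUF2, which hold microtubules, were at -0.08 and 0.03. Of the spindle motors, KIF11, which pushes the spindle poles apart, had 190, 196 and 189 CPM in shARMC5 and 204, 203 and 199 CPM in shNT, without overlap and not called (log2 fold change -0.08, adjusted P = 0.147). KIF20A, KIF23 and TPX2 lay between -0.02 and 0.04.

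TOP2A, the topoisomerase that untangles sister chromatids, was 650, 658 and 629 CPM in shARMC5 and 696, 702 and 670 CPM in shNT. It fell by 6.28%, without overlap (log2 fold change -0.09, SE 0.03, adjusted P = 0.0672). The call held without shNT replicate 3 and was lost on leaving out any 1 of the other 5 libraries, with log2 fold changes of -0.11 to -0.08 and adjusted P values of 0.108 to 0.226. MKI67, whose product Ki-67 is the common stain for proliferating cells, had 1027, 970 and 882 CPM in shARMC5 and 1167, 1011 and 1064 CPM in shNT. The groups overlapped, and the log2 fold change of -0.17 (SE 0.08, 95% interval -0.39 to 0.05) was not called (adjusted P = 0.384).

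Over the 42 genes that were not called, the 95% interval lay within 0.2 of 0 on the log2 scale for 34 and within 0.1 for 11. For the others, a change of that size in at least one direction lay inside the interval.

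Levels followed transcript length in 2 of the libraries, and both genes called lower, CENPE and TOP2A, are long. Among 9332 genes with at least 10 CPM, Spearman's rho between transcript length and the level of a library relative to the others was 0.397 in shNT replicate 1 and -0.320 in shARMC5 replicate 3, and -0.130 to 0.104 in the other 4. Between length and the log2 fold change, rho was -0.207 over these genes and -0.339 over the 49 cell cycle genes, which share the same 6 libraries. Genes of 6000 bases or more (539 genes) had a median log2 fold change of -0.09, with 1.48% called higher and 13.0% called lower. The 4 cell cycle genes of this length, CDK6, CENPF, CENPE and MKI67, had a median of -0.15. TOP2A, at 5061 bases, belongs to the next bin, whose 1133 genes had a median of -0.02 with 8.21% called lower. An offset for transcript length moved CENPE further from 0, to -0.21, and it was called in edgeR (adjusted P = 0.0795) and DESeq2 (adjusted P = 0.00531). TOP2A stayed at -0.09 with this offset and was not called in edgeR (adjusted P = 0.447) or DESeq2 (adjusted P = 0.376).

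Without these 2 libraries, rho was -9.32e-05 over the genes with at least 10 CPM and -0.05 over the cell cycle genes. The fit then called 500 genes (3.64%), 2.35% of the tested genes as higher, and 3 of the 49 cell cycle genes remained called, each of them higher. CCND1 kept its difference of 0.17 (adjusted P = 0.0166 in edgeR), FOXM1 was at 0.13 (adjusted P = 0.0630) and CCND3 at 0.16 (adjusted P = 0.0952). CDC25A, at 0.14 (adjusted P = 0.160), and CDC20, at 0.10 (adjusted P = 0.118), were no longer called. CENPE was at -0.11 (adjusted P = 0.272) and TOP2A at -0.07 (adjusted P = 0.411), and neither was called. The distance from 0 of the longest genes shrank, to -0.07 for CENPF and -0.05 for MKI67. This fit has 2 libraries a group and was chosen after the data were seen, and the part of transcript length in these results was not tested.

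**Figure D4:**
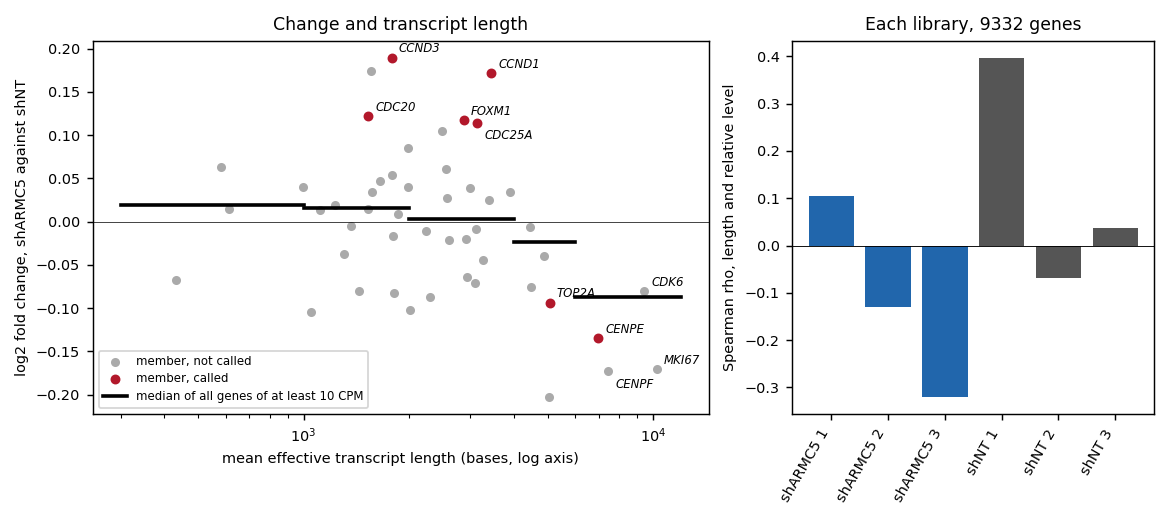
Left, log2 fold change of each of the 49 genes against its mean effective transcript length on a log axis, with called genes in red and black bars for the median of all genes of at least 10 CPM in each length bin. Right, Spearman's rho between length and relative level in each library, which is highest in shNT replicate 1 (0.397) and lowest in shARMC5 replicate 3 (-0.320).

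The shares of the MKI67 transcripts were chosen for description after their values were seen. The salmon estimates gave the 692-base transcript MKI67-203, for which GENCODE defines no coding sequence, 16.9%, 15.3% and 18.4% of the gene's TPM in shARMC5 and 11.9%, 12.1% and 11.7% in shNT. The longest transcript, MKI67-202 with 12716 bases, had 18.2%, 18.2% and 16.3% in shARMC5 and 21.3%, 21.8% and 21.0% in shNT. The shARMC5 and shNT shares did not overlap for either transcript. MKI67-203 rests on 181.0 to 317.8 estimated reads a library, so TPM gives it more weight than its reads. Of 90 transcripts that held at least 10% of their gene's TPM, 8 (8.89%) had shares that did not overlap between the groups, and 3 of these were of MKI67. Over the 31864 such transcripts of all tested genes the share was 9.66%, so the count among the cell cycle genes was near that of all genes.

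**Figure D5:**
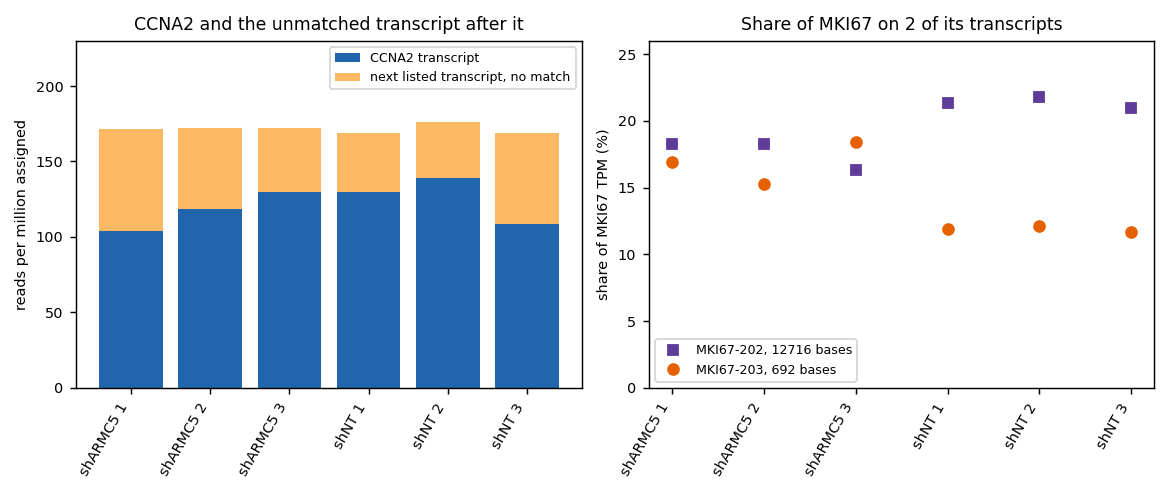
Left, reads per 1000000 assigned to the CCNA2 transcript (blue) and to the unmatched transcript listed after it (orange) as stacked bars, which add up to 168.6 to 176.1 in each of the 6 libraries. Right, share of MKI67 TPM in percent on MKI67-202 and MKI67-203 in each library, where the shARMC5 and shNT points do not overlap for either transcript.

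A further 132 genes of the same machinery were read from the same fit, 131 of which were tested. Of these, 13 (9.92%, against 7.75% of all genes) were called, 7 higher and 6 lower (2 and 10 with library size only), and the median log2 fold change of the 131 was -0.01. This share is not matched for level either, with means down to 1.27 CPM, and these lists were also chosen with earlier results known. Among 26 tested G1/S and G2 regulators, PKMYT1, the kinase that inhibits CDK1, was called higher (0.11, adjusted P = 0.0839), as was CDKN2B, an inhibitor of CDK4 and CDK6 (0.93, SE 0.30, adjusted P = 0.0972). CDKN2B had only 17 to 67 reads a library. Among 18 genes of the anaphase promoting complex and its partners, UBE2S, its chain-elongating enzyme, was higher (0.11) and ANAPC1, its largest subunit, was lower (-0.15).

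Among 34 other centromere and kinetochore genes, SKA2 (0.16) and MAD1L1 (0.18) were called higher, and CENPC (-0.28) and KNTC1 (-0.16) lower. CENPC, which links centromeric chromatin to the kinetochore, had 15.9, 16.3 and 15.7 CPM in shARMC5 and 19.2, 19.5 and 19.8 CPM in shNT (SE 0.06, adjusted P = 0.0158). Among 32 other spindle and cytokinesis genes, ECT2 (0.12) and PRC1 (0.09), which build the cleavage furrow and the central spindle, were higher, and ASPM (-0.14) and CIT (-0.12) lower. Of the 21 condensin and cohesin genes, 1 was called (4.76%, against 7.75% of all genes), the condensin subunit NCAPD2 (-0.09). Over the alternatives, CENPC was called in 15 of 16, SKA2 in 14, ECT2 in 13, KNTC1 in 11, ASPM in 10, NCAPD2 in 9 and ANAPC1 in 8. UBE2S, MAD1L1, CIT and PRC1 were called in 6 of 16 each, CDKN2B in 5 of 15 and PKMYT1 in 4 of 16. Sizes moved too, with log2 fold changes of 0.03 to 0.10 for PRC1, 0.08 to 0.22 for MAD1L1 and -0.26 to -0.06 for CIT. Those of ASPM ran from -0.18 to -0.08 and those of ANAPC1 from -0.24 to -0.08. Of the 13 calls, as few as 2 remained when a single library was left out (shARMC5 replicate 2, with 4.24% of all genes called), and without shNT replicate 1 and shARMC5 replicate 3 1 of the 13 remained. Over all genes, 549 and 426 of the 1064 calls remained in these fits.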

How the data were processed

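The 6 polyA+ RNA-seq libraries, 3 of each shRNA, were grouped by their labels. The authors used cutadapt 4.2 for trimming and salmon 1.9.0, with its GC bias correction, to quantify transcripts. The deposited files give an estimated count of reads and a TPM value for each transcript, with its length and effective length. The transcript set is not given in the sources used here. Identifiers were matched without version to GENCODE 44, which matched 165533 of 177456 transcripts. The other 11923, with 2.96% to 3.04% of the reads, were left out.

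Per gene, estimated counts were added up and rounded to whole numbers. A gene entered the test with 10 or more counts in 3 or more libraries. The test was the robust quasi-likelihood F test in edgeR 4.0.16 under R 4.3.3, scaled by TMM, and the model held condition alone. Genes with a Benjamini-Hochberg adjusted P below 0.1 were called, the threshold of the study, which used DESeq2. Levels in CPM are TMM-normalized. The SE is the absolute log2 fold change divided by the square root of F, and intervals are 95% intervals on the same degrees of freedom. Deposited TPM values were summed per gene for levels and divided by that sum for transcript shares. Counting error limits genes with few reads, and it was the only error behind limits set on counts of 0. Alternatives were another scaling, no filter, length offsets, DESeq2 1.42.0, a replicate term, unmatched transcripts added to the gene listed before them, a threshold of 0.05 and leaving out libraries. The test was checked on simulated data with a log2 change of 1 in 200 genes. There edgeR recovered 84.5% of them, and 11.5% of its calls were false. Changes as small as those of the called members were not simulated.

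The members and lists were chosen with earlier results of these data known. Genes named are ARMC5, called members, members without overlap and with an absolute log2 fold change of at least 0.1, the 3 most and 3 least abundant, an anchor of each role, and up to 5 called genes each way of the other lists. BUB1B, KIF11 and other members given by value were named after their values were seen. Spearman's rho was computed with scipy 1.17.1 and is a description.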

Additional observations from a re-analysis of the deposited data

Results flagged for a closer look

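Reads outside the comparisons were found beside 2 of the genes. The transcript listed directly after CCNA2, which matched no GENCODE 44 entry, held 1113 reads in the library with the fewest and 2194 in the library with the most. The unmatched transcripts listed after CENPF held 208 to 284 reads, which is 1.60% to 2.25% of their sum with CENPF. Both were above the limit of 3 reads that a count of 0 allows. Which genes these transcripts belong to was not tested beyond their place in the list.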

How the results depend on the processing

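Of the 7 calls, those of CCND1 and CCND3 held under each alternative run. Against 7 called members, 13 other cell cycle genes and 1064 genes in all, an offset for transcript length in edgeR gave 3, 2 and 234, and DESeq2 with that offset 4, 5 and 568. Testing genes with at least 1 count gave 11 members, 20 others and 1537 genes, with CENPF, MKI67, CCNE1 and CDKN1B added to the 7 members. A threshold of 0.05 gave 5 others and 676 genes. Leaving out each library in turn gave 4 to 6 members, 2 to 12 others and 536 to 1074 genes, with ARMC5 at -1.15 to -1.02. The fit without shNT replicate 1 and shARMC5 replicate 3, chosen after seeing the data, gave 3, 3 and 500. The causes of these shifts were not tested. With library size only, the other cell cycle genes split into 2 higher and 10 lower, against 7 and 6, and all genes into 458 and 495, against 610 and 454.

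A replicate block called 12 members, 24 others and 1766 genes. Libraries with the same number did not deviate together (r = -0.0499, -0.047 and 0.0762 over 10369 genes). The shARMC5 replicate 1 library correlated best with shNT replicate 2 (r = 0.173), but shARMC5 replicate 3 with shNT replicate 3. With 3 libraries a group, these values cannot settle whether the numbers pair the samples. The main model held no replicate term.

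Signs turned for CDK4 (-0.0007857 with library size only, -0.03926 without both libraries, and -0.02664 to 0.04019 when leaving out each library), CDK2 (-0.08537 with the length offset in edgeR and -0.08611 in DESeq2), CCNA2 (0.02057 with the unmatched transcript), CCNB1 (-0.01175 without both libraries, and 0.03934 as the highest value when leaving out each library) and AURKA (-0.00576 with library size only, and -0.01037 to 0.02931 when leaving out each library). None of these genes was called in any of the alternatives. Among the cell cycle genes named, depth limits CCND2 (0 or 1 read) and CDKN2B (17 to 67 reads) most.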

Other observations

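Besides MKI67, 5 members had a transcript whose share of the gene's TPM did not overlap between the groups. With those of MKI67, such transcripts were 8 of the 90 that held at least 10% of a member's TPM (8.89%), near the 9.66% over all tested genes. CDK2-203, a protein-coding transcript of 1031 bases, had 11.4%, 18.0% and 15.2% of CDK2 in shARMC5 and 10.8%, 9.98% and 9.70% in shNT. The short transcript CDK2-205 ranged from 0% to 21.8% between libraries of shARMC5, and the sign of CDK2 turned with the length offset. AURKB-214 held 37.7 ± 0.515% of AURKB in shARMC5 and 44.01 ± 5.70% in shNT (SD, n = 3). BIRC5-202 held 71.7 ± 2.27% of BIRC5 in shARMC5 and 68.1 ± 1.45% in shNT. CCNB2-201 had mean shares of 93.6% and 91.3%, and PTTG1-201 of 95.4% and 93.9%. These shares are salmon estimates, and 27 of the members have 2 or more transcripts with at least 10% of their TPM.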
